A study of Arabidopsis thaliana with 10 samples.

Results

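In Arabidopsis thaliana seedlings sampled over a day, 68 nuclear genes had higher transcript signals at 4 h than at 0 h and 24 h, whether the seedlings had received dexamethasone or its solvent DMSO. They were chosen from 13513 probe sets that each match 1 gene, of 22746 probe sets on the array. In each, the lowest of the 4 arrays at 4 h lay above the highest of the 6 arrays at 0 h and 24 h. The mean of the 4 arrays was also at least 1.6 times the mean of the 6, and it was above 40 signal units. Plastid-encoded genes, COR27, AT4G33980, GI and PORB were left out. Since these values chose the genes, the height of the 4 h signals is described here without a test.

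Whole seedlings were compared in 5 groups with 2 arrays each. Dexamethasone, a synthetic steroid that switches on steroid-inducible transgenes, was applied for 4 h or 24 h, and DMSO samples were taken at 0 h, 4 h and 24 h. Every group was in Col-0 and carried transposon knock-outs of GLK1 and GLK2 (Atglk1;Atglk2), which encode transcription factors that promote chloroplast development. The DMSO samples therefore stand for double mutant seedlings and not for wild type. The seedlings grew for 10 days on sucrose plates and about 100 were then moved to each liquid culture flask for 48 h. Plates and medium contained hygromycin, and the light cycle was 16 h light and 8 h dark. The labels call the dexamethasone samples induced but name no transgene, promoter or line. They do not say whether replicates came from separate flasks, so the spread that the p-values rest on may be technical.

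Plant transcript levels change through the day because light, sugar supply and the circadian clock all act on transcription. Genes for photosynthesis, starch turnover, cold protection and secondary metabolism are among those known to peak at particular hours. A sample at 24 h is taken 1 full light cycle after 0 h, whereas a sample at 4 h falls at another time of day. The labels give no clock times, and time of day and time since the DMSO was added cannot be told apart here. Because whole seedlings were pooled, a change in the number of cells of a type and a change in RNA per cell cannot be told apart either.

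The deposited values were linear signal intensities made by the authors with MAS5, in arbitrary units, and the number of arrays limits their precision. Median signals were 33.9 to 35.9 per array, and the 2 arrays of a group correlated with r of 0.970 to 0.987 over probe sets. The main axis of variation, with 31.3% of the variance, separated the 4 h arrays from the rest. On the next axis (23.4%) replicate 2 of dexamethasone at 4 h and replicate 1 of DMSO at 24 h stood apart. The 6 of 15 defence markers with a probe set of their own summed to 16037 and 11306 on those arrays, against 1915 to 2915 on the other 8. All but PDF1.2 and PDF1.2b were higher on those arrays than on any other. None of these markers was at 0, and the part of this difference in the results below was not tested except by leaving the arrays out. GLK1 and GLK2 had 0 single-gene probe sets, so the mutations were not checked on the arrays. Of 13 root markers, 1 had a probe set: EXPA7, a root hair expansin, which was not at 0 on any array. It gave 42.3 and 33.9 with dexamethasone and 32.1 and 37.8 with DMSO at 4 h, against 32.3 to 57.2 on the other 6 arrays. Its ratio of 4 h to the other arrays was 0.786, so this marker was lower on average at 4 h, with overlapping arrays, and its part in the 4 h pattern was not tested.

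AT1G07050, the 1 measured gene of 20 on a list of CCT-domain and B-box genes related to photoperiod, had the largest ratio. Its signals at 4 h were 169 and 142 with dexamethasone and 124 and 143 with DMSO. They were 7.95 and 14.6 with DMSO at 0 h, 14.7 and 9.25 with dexamethasone at 24 h, and 4.35 and 11.1 with DMSO at 24 h. The 2 sets of arrays were far apart, with the lowest 4 h value 8.39 times the highest of the others and a ratio of means of 13.9. AT2G23910 had 90.6 and 61.1 with dexamethasone and 71.1 and 95.2 with DMSO at 4 h, against 9.60 to 15.1 on the other 6 arrays. Its ratio was 6.37, and neither treatment was uniformly the higher at 4 h. In AT1G17665, signals of 48.3 and 41.7 with dexamethasone and 52.8 and 55.0 with DMSO at 4 h stood against 8.53 to 13.8 on the other arrays, a ratio of 4.39. For these 3 genes all 6 other arrays lay below percentile 40 of their array, a range in which signal and background are hard to separate. The size of their ratios is therefore uncertain. A further 8 genes had between 1 and 5 such arrays, and 57 had none. Among the 8 were AT3G15720 (5), AT1G60590 (4), COR15B (3) and PDF2.1 (2), whose ratios below are uncertain in the same way.

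**Figure D1:**
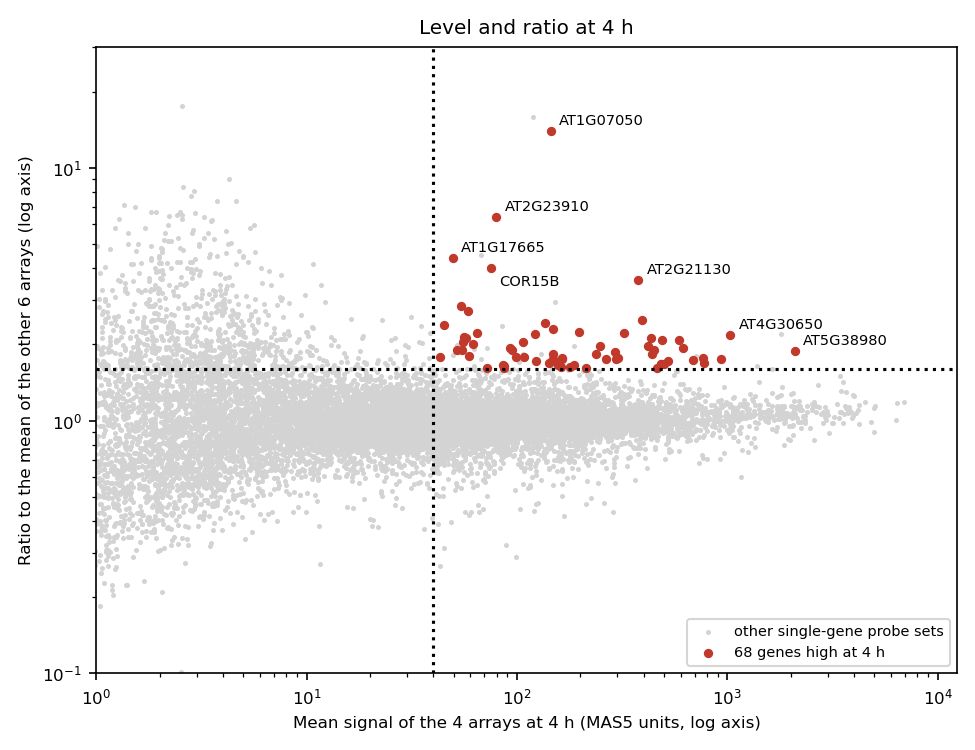
Mean signal of the 4 arrays at 4 h (horizontal, log scale) against the ratio of that mean to the mean of the 6 arrays at 0 h and 24 h (vertical, log scale). Coloured points are the 68 genes, and grey points are the other single-gene probe sets within the axis limits, without a low-signal filter. The broken lines mark a mean of 40 and a ratio of 1.6. Most of the genes lie between 1.6 and 2.5, with AT1G07050 and AT2G23910 far above them.

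COR15B had the largest ratio among the genes that carry a name. It encodes a cold-regulated protein of the chloroplast stroma that protects membranes during freezing. Its signals at 4 h were 79.8 and 68.0 with dexamethasone and 80.8 and 71.9 with DMSO, against 12.8 to 22.0 on the other 6 arrays. That is a ratio of 4.02, and the 4 h arrays of the treatments were close together. Of the other 6 arrays, 3 lay below percentile 40 of their array, so the size of this ratio is uncertain too. Of 14 cold and dehydration genes on the list, 4 were measured, and COR15B alone had all 4 h arrays above the other 6. Its neighbour COR15A, a close relative, had a ratio of 2.09 but only 25.1 as its mean at 4 h, and its arrays overlapped. The dehydrins LTI30 and COR47 had ratios of 0.875 and 0.935. COR15A and COR15B are similar in sequence, so cross-hybridisation between their probe sets was not tested.

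PWD, phosphoglucan, water dikinase, adds phosphate to starch so that it can be broken down. It had signals of 474 and 407 with dexamethasone and 439 and 411 with DMSO at 4 h, against 217 and 184 with DMSO at 0 h. At 24 h it gave 202 and 207 with dexamethasone and 207 and 211 with DMSO. The 6 arrays at 0 h and 24 h thus spanned only 184 to 217, and the ratio was 2.11. On the starch list 3 of 19 genes were measured. DPE1, a disproportionating enzyme that acts on maltotriose, also had all 4 h arrays above the rest at a ratio of 1.38, under the limit of 1.6. SBE2.2, a starch branching enzyme, had a ratio of 0.775.

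THIC makes the pyrimidine part of thiamine, vitamin B1, in the chloroplast. Its signals were 687 and 531 with dexamethasone and 566 and 580 with DMSO at 4 h, and 238 to 319 on the other arrays. The ratio was 2.08. PDF2.1, of the plant defensin family of small cysteine-rich proteins, had a ratio of 2.71. Its 55.7 and 53.9 with dexamethasone and 51.5 and 73.0 with DMSO at 4 h stood above 42.2, its highest value elsewhere, which was a DMSO array at 0 h. UGT71B1, a UDP-glucosyltransferase that joins glucose to small molecules, had a ratio of 1.94. CHIL, a chalcone isomerase-like protein that assists flavonoid synthesis without catalysis, had a ratio of 1.90. Its signals were 84.7 and 76.2 with dexamethasone and 123 and 95.6 with DMSO at 4 h, so both dexamethasone arrays lay below both DMSO arrays, and 29.8 to 70.0 elsewhere. GTR1, a glucosinolate transporter, had a ratio of 1.69, and its relative GTR2 had 1.06.

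Several named genes serve the chloroplast. NdhN is a nuclear-encoded subunit of the plastid NAD(P)H dehydrogenase-like complex, which takes part in cyclic electron flow. It had 338 and 289 with dexamethasone and 264 and 290 with DMSO at 4 h, against 148 to 188 elsewhere, a ratio of 1.74. Cpn60beta4, a plastid chaperonin subunit needed to fold a subunit of the same complex, had 181 and 143 with dexamethasone and 150 and 178 with DMSO at 4 h. Its other arrays gave 78.2 to 97.9, and the ratio was 1.77. CRR42, named for a defect in the activity of that complex, fell just outside with a ratio of 1.587, although its arrays did not overlap. OTP81, a pentatricopeptide repeat protein that acts on plastid transcripts, had a ratio of 1.89. CHL, a lipocalin of the chloroplast, had 739 and 684 with dexamethasone and 641 and 692 with DMSO at 4 h, against 343 to 421 elsewhere, a ratio of 1.73. MAP1C, an organellar methionine aminopeptidase that removes the first amino acid of new proteins, had a ratio of 1.67.

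**Figure D2:**
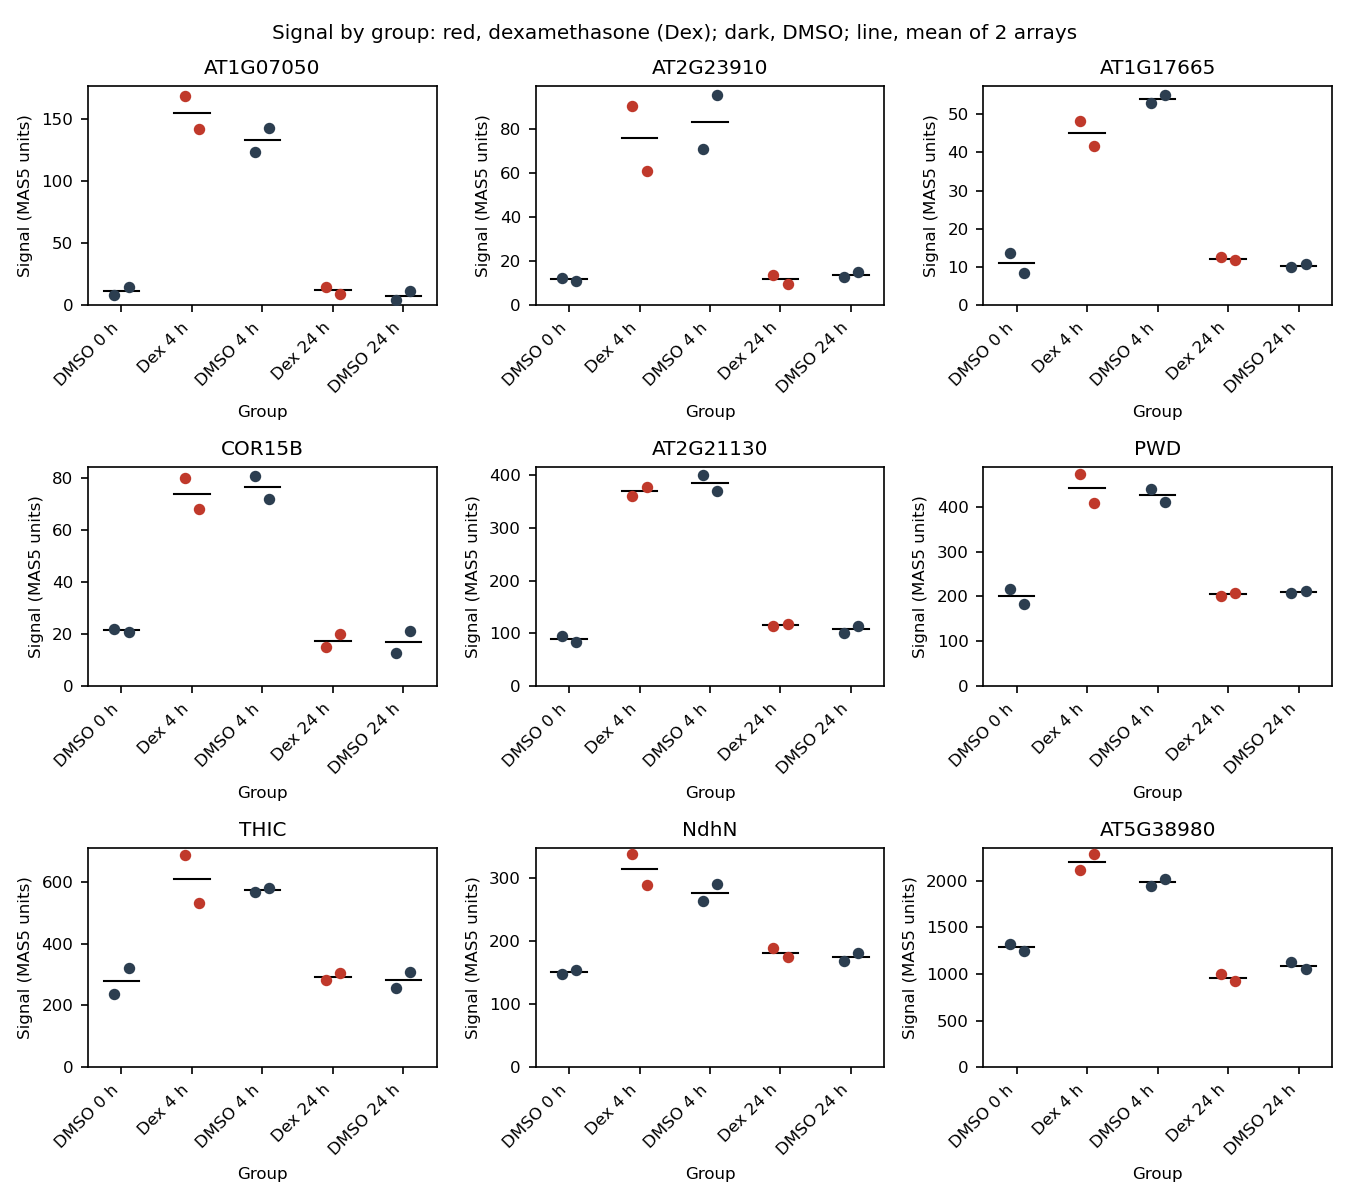
Signal of 9 genes on each array (points; vertical axes start at 0, arbitrary units) in the 5 groups, with the group mean as a bar. In each panel all 4 arrays at 4 h lie above the 6 arrays at 0 h and 24 h. The points of dexamethasone and DMSO at 4 h overlap in range in every panel except AT1G17665 and AT5G38980.

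Relatives of the named genes were examined by family. Of 13 serine carboxypeptidase-like genes tested, SCPL49 (ratio 1.94) and scpl35 (1.77) were in the set and the family's median ratio was 1.11. Of 7 defensins tested, PDF2.1 alone was in the set and the family's median ratio was 1.09. PDF1.2 had a ratio of 1.40, PDF1.4 of 1.36, PDF1B of 1.09, PDF2.5 of 1.09, PDF1.2b of 1.08 and PDF1A of 0.877. The family median was 1.27 over 8 genes named for the NAD(P)H dehydrogenase-like complex or its activity, and 1.29 over 4 organelle transcript processing genes. It was 1.16 over 3 chaperonin 60 genes, 0.995 over 4 methionine aminopeptidases and 0.959 over 6 UGT71 genes. The same ratio had a median of 0.991 over all tested single-gene probe sets. These families were drawn up after the genes had been seen, and each holds at least 1 gene that the ratio itself chose.

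Most of the set consists of genes known here by a locus number alone: 54 of the 68 had no other name in the annotation used, and 14 had one. AT2G21130 had a ratio of 3.59, with 360 and 378 with dexamethasone and 399 and 369 with DMSO at 4 h, against 84.7 to 119 elsewhere. Its 4 h arrays were unusually even and well separated from the rest. AT4G16146 had 385 and 438 with dexamethasone and 359 and 381 with DMSO at 4 h. Its other arrays gave 112 and 112 with DMSO at 0 h, 168 and 179 with dexamethasone at 24 h, and 191 and 174 with DMSO at 24 h. The 24 h values of this gene lay between those of 0 h and 4 h. AT3G15720 (ratio 2.85), AT5G09820 (2.42), AT1G60590 (2.39), AT1G27480 (2.31) and AT1G06000 (2.24) complete the 12 largest ratios. In AT1G60590 the lowest 4 h array, replicate 2 of dexamethasone, had 29.8 and the highest other array had 29.7, the smallest separation among the 68 genes.

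The genes with the highest mean signals at 4 h come next. AT5G38980 had 2117 and 2284 with dexamethasone and 1940 and 2024 with DMSO at 4 h, against 924 to 1322 elsewhere, a ratio of 1.88. AT4G30650 had 1013 and 806 with dexamethasone and 1041 and 1272 with DMSO at 4 h, against 362 to 543 elsewhere, a ratio of 2.18. AT4G32340 had a ratio of 1.74 and AT5G02160 one of 1.69, while scpl35 and CHL, named above, were the other two with the highest means. Signals of different probe sets are not a measure of relative transcript abundance.

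Over the 68 genes the ratio ranged from 1.61 to 13.9 with a median of 1.85. It was 2 or more in 23 genes and 4 or more in 4. The mean signal at 4 h ranged from 43.2 to 2091, with a median of 159. The lowest 4 h array was a median of 1.34 times the highest other array, and more than 1.5 times in 16 genes. Within each side the arrays varied with a median coefficient of variation of 12.1% at 4 h and 13.6% at the other times. The choice itself limits this spread, since no gene could enter with a 4 h array below another array.

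The difference was present within each treatment, as the choice requires. The median ratio was 1.87 (range 1.43 to 13.0) for dexamethasone at 4 h over dexamethasone at 24 h. For DMSO at 4 h it was 1.81 (1.33 to 11.8) over DMSO at 0 h and 1.91 (1.29 to 17.2) over DMSO at 24 h. By array, the median level of a gene relative to its mean of the 6 arrays was 1.99 and 1.92 with dexamethasone at 4 h and 1.76 on each DMSO array at 4 h. At 0 h it was 1.02 on each DMSO array. At 24 h it was 1.04 and 1.03 with dexamethasone and 0.915 and 1.01 with DMSO, the lowest being the array that stood apart. That array held the lowest of the 6 values in 25 genes.

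**Figure D3:**
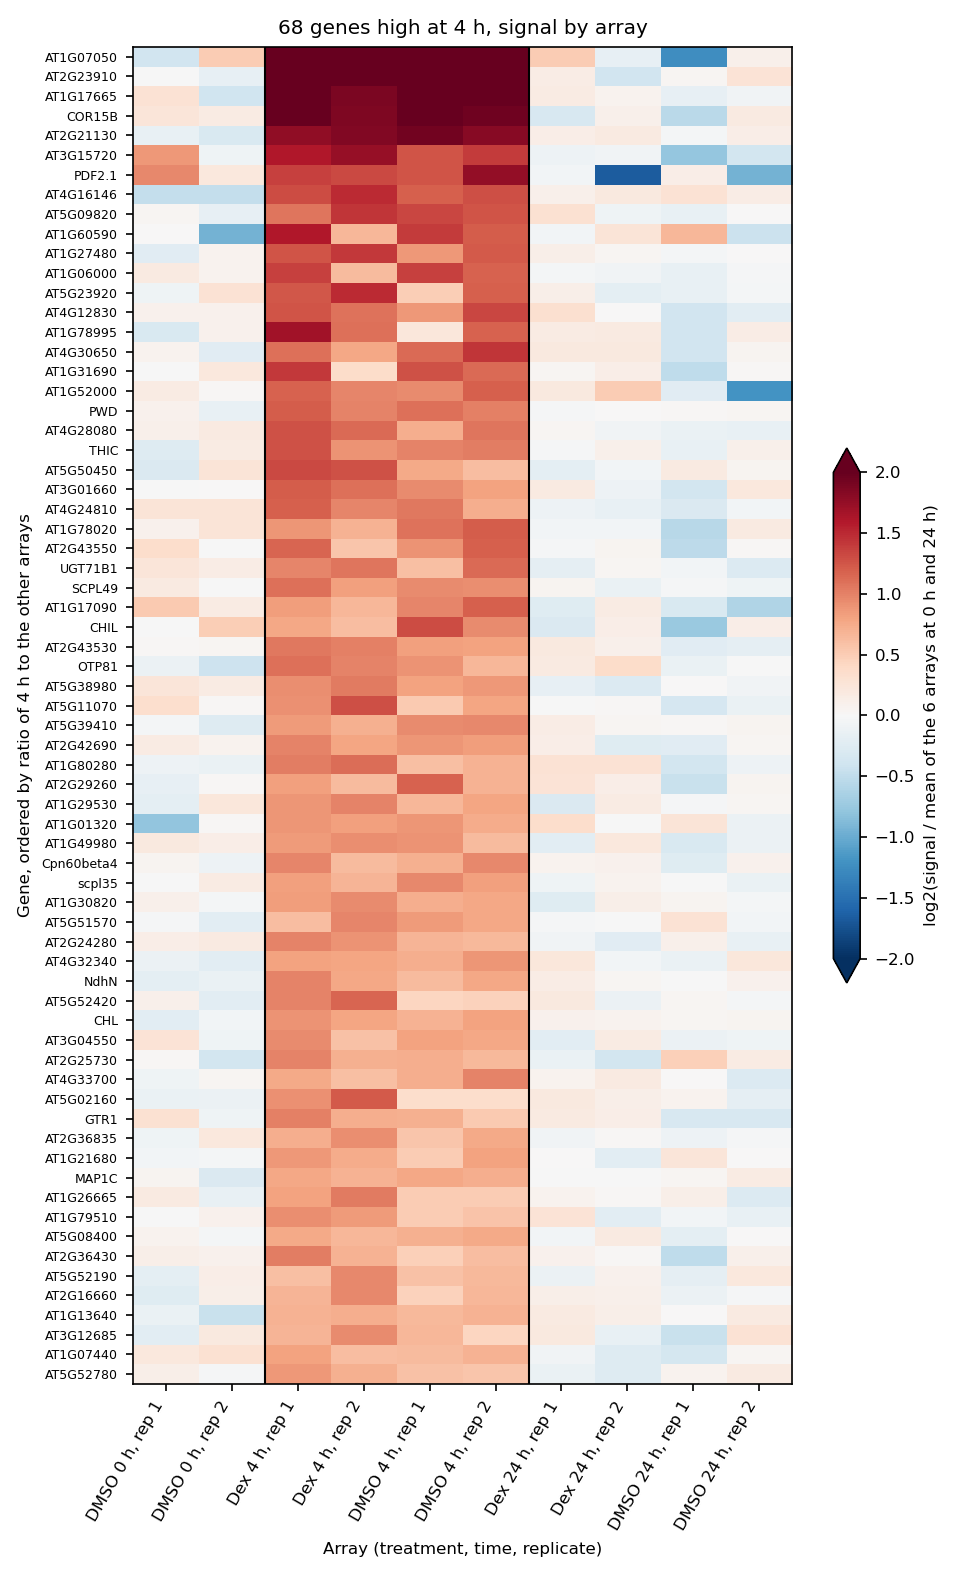
Signal of each of the 68 genes on each of the 10 arrays as log2 of the signal over the gene's mean of the 6 arrays at 0 h and 24 h (colour, saturating at the ends of the bar), with genes in rows by falling ratio and arrays in columns by time, dexamethasone left of DMSO. In each row the 4 cells at 4 h exceed the other 6 because the genes were chosen so; the contrast is strong in the first rows and slight for some cells further down.

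The limits of the choice cut through a continuous range. Of the 13513 single-gene probe sets, 335 (2.48%) had all 4 arrays at 4 h above the other 6, and 70 (0.518%) met all 3 criteria before genes were left out by name. Just inside the ratio limit were AT5G52780 (1.607), AT1G07440 (1.613) and AT3G12685 (1.614), and just outside were AT4G17140 (1.597), AT1G53035 (1.593) and CRR42. Just inside the limit on the mean were AT1G49980 (43.2), AT1G60590 (44.8) and AT1G17665 (49.5), and just outside were AT3G15140 (38.6), AT5G12900 (38.4) and AT2G22420 (38.3). A further 198 genes were separated and above the limit on the mean but had a smaller ratio, and 16 met the ratio and the mean but overlapped. Without both arrays that stood apart, 79 genes qualified, and 58 of the 68 were among them. COR27, a cold- and clock-regulated gene, and AT4G33980 met the numbers, with ratios of 15.9 and 4.50. PORB, a protochlorophyllide oxidoreductase, just missed them at 1.596. GI, a clock component, had 0.708, and its 4 arrays at 4 h (95.8 to 158) all lay below the other 6 (178 to 203).

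The genes lay on all 5 chromosomes. Chromosome 1 held 22 (32.4%, against 25.5% of all single-gene probe sets), chromosome 2 held 15 (22.1% against 16.3%) and chromosome 3 held 8 (11.8% against 20.3%). Chromosome 4 held 7 (10.3% against 14.5%) and chromosome 5 held 16 (23.5% against 22.3%). AT2G43530 and AT2G43550 were near neighbours with 2 genes between them. AT2G43530 had 491 and 477 with dexamethasone and 417 and 412 with DMSO at 4 h, against 201 to 269 elsewhere. AT2G43550 had 477 and 314 with dexamethasone and 398 and 486 with DMSO at 4 h, against 148 to 272 elsewhere. The genes between them did not qualify: AT2G43535 had a ratio of 1.32 with overlapping arrays and AT2G43540 one of 1.01.

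Few genes on other day-related lists could be examined with the names available. The 2 measured of 23 clock components had a median ratio of 0.897, and neither was in the set. No gene was in the set among the measured ones of the lists for heat shock and folding (3 of 19) and flavonoid synthesis (2 of 15). The same held for light signalling (3 of 21), auxin response (4 of 17) and dark and sugar starvation (2 of 13). The low-signal filter was passed by only 1 of the heat shock and folding genes, 2 of the light signalling genes and 2 of the auxin response genes. The lists do not cover every gene of a function. CHIL, named above for flavonoid synthesis, was in the set but was not among the measured genes of that list. Of the tested genes of all 11 lists, none passed in the comparisons of dexamethasone with DMSO at 4 h or 24 h, or of DMSO at 24 h with DMSO at 0 h.

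Whether dexamethasone altered the 4 h signals of these genes was tested with limma. The choice treated the 4 arrays at 4 h alike, but it required all of them to lie above the other 6. A gene raised at 4 h with only 1 treatment could not enter, so large differences either way were limited in advance. The shares set against all probe sets below carry the same limit. None of the 68 genes passed an adjusted p of 0.05, and 1 of 14575 probe sets (0.00686%) did. The smallest adjusted p among the 68 was 0.324. The log2 differences of dexamethasone against DMSO ran from -0.41 to 0.71 with a median of 0.11, beside a median of -0.01 over all probe sets tested. They were above 0 in 44 genes (64.7%), against 47.8% of all. An unadjusted p below 0.05 was found for 9 genes with higher values (13.2%, against 3.74% of all) and for 0 with lower values (against 3.27%). Both dexamethasone arrays lay above both DMSO arrays in 24 genes (35.3%, against 16.5% of all) and below both in 6 (8.82%, against 18.4%).

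AT5G02160 had the smallest p at 4 h. Its signals were 862 and 1076 with dexamethasone and 587 and 585 with DMSO at 4 h, so the treatments did not overlap. Its log2 difference was 0.71 (SE 0.13, limma adjusted p = 0.324). It passed only when replicate 1 of dexamethasone at 4 h was left out, so that the array that stood apart alone represented its group, at 0.87 with a limma adjusted p of 0.0251. In that fit 80 probe sets of all passed. AT5G52420 had 169 and 190 with dexamethasone and 115 and 117 with DMSO, a log2 difference of 0.62 that did not pass. AT1G80280 with 0.41, AT5G50450 with 0.56 and AT5G11070 with 0.44 did not pass either, and AT5G11070 had 0.26 without replicate 2 of dexamethasone at 4 h. For the 14 genes with a name the differences ran from -0.41 in CHIL to 0.24 with a median of 0.03.

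The median at 4 h moved with the arrays included. Without replicate 2 of dexamethasone at 4 h, the array that stood apart, the median of the 68 genes was 0.14 beside 0.01 over all probe sets, and 53 genes were above 0 (all probe sets 51.6%). In that fit 5 genes instead of 9 had higher values with an unadjusted p below 0.05 (all probe sets 2.23%). The median was 0.07 without replicate 1 of dexamethasone at 4 h, and also 0.07 without replicate 1 of DMSO at 4 h. Replicate 1 of dexamethasone was the highest of the 4 arrays in 27 genes and the lowest in 3. Replicate 2 was the highest in 20 and the lowest in 24, so the 2 dexamethasone arrays differed from each other in many genes. Replicate 1 of DMSO was the lowest in 28 and the highest in 7.

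**Figure D4:**
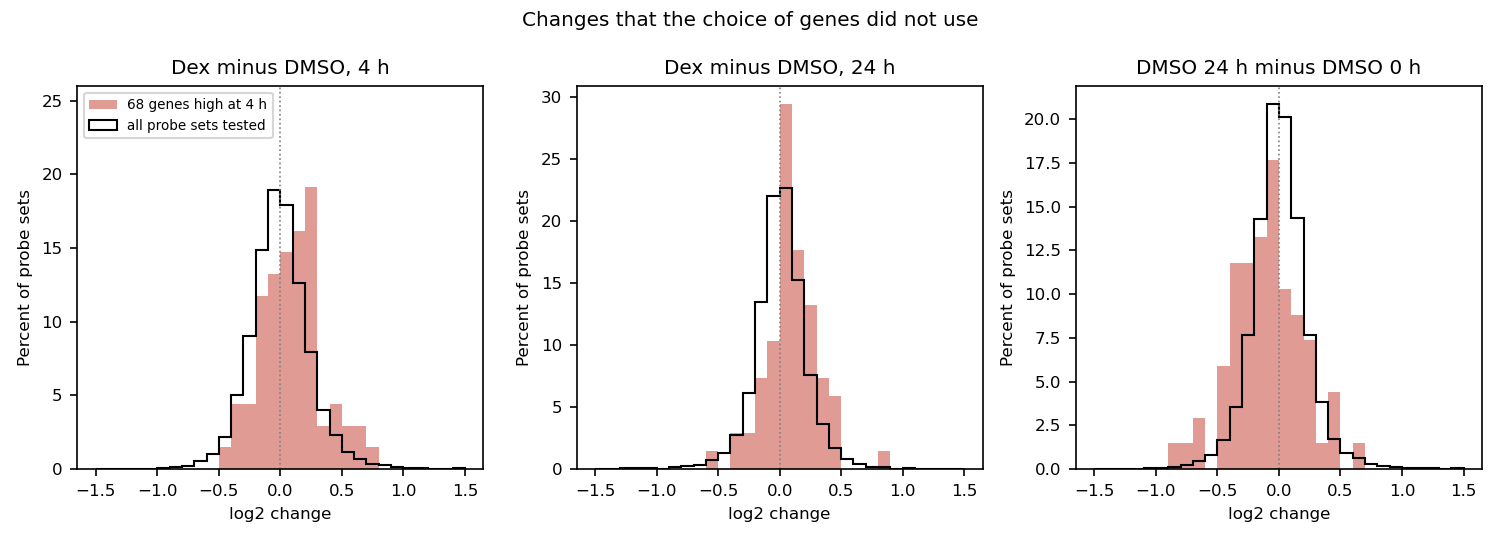
Distribution of log2 differences for the 68 genes (coloured) and for all 14575 probe sets tested (grey outline), each as a percentage of its own set, in the comparisons of dexamethasone with DMSO at 4 h, of dexamethasone with DMSO at 24 h, and of DMSO at 24 h with DMSO at 0 h. The medians of the 68 genes are 0.11, 0.09 and -0.09, and no gene passed in limma in any of them.

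At 24 h, again, none of the 68 genes passed (smallest limma adjusted p = 0.999), and 1 of 14575 probe sets did (0.00686%). Genes as high at 24 h as at 4 h with either treatment could not enter, which limits differences here too. The median log2 difference was 0.09, beside 0.01 over all probe sets, with a range of -0.54 to 0.89. It was above 0 in 51 genes (75.0%, against 52.5% of all). An unadjusted p below 0.05 was found for 4 genes with higher values (5.88%, against 1.88% of all) and 2 with lower values (2.94%, against 1.21%). Both dexamethasone arrays were above both DMSO arrays in 20 genes (29.4%, against 18.0%) and below both in 6 (8.82%, against 14.1%). Without replicate 1 of DMSO at 24 h, the array that stood apart, the median was 0.03 and 40 genes were above 0 (all probe sets 51.4%). The share above 0 thus differed by array.

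AT1G80280 had the smallest p at 24 h, with 98.8 and 98.0 for dexamethasone and 62.7 and 75.5 for DMSO, a log2 difference of 0.49 (SE 0.13, limma adjusted p = 0.999). AT1G52000 had 31.2 and 38.7 with dexamethasone and 23.2 and 11.8 with DMSO at 24 h, a log2 difference of 0.89. The difference did not pass, and it was 0.51 without replicate 2 of DMSO at 24 h, the lower DMSO array. AT2G43530 had 0.35, GTR1 had 0.46 and AT2G25730 had -0.54, and none of them passed. AT2G25730 was the gene with 65.4 and 55.5 with dexamethasone against 99.8 and 80.1 with DMSO at 24 h.

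The dexamethasone arrays lay above the DMSO arrays at both times in 10 genes (3.13% of all probe sets did so). They were AT1G27480, AT1G80280, AT2G16660, AT2G43530, AT3G15720, AT4G28080, AT5G02160, AT5G11070, GTR1 and OTP81. OTP81, for example, had 61.6 and 57.0 with dexamethasone and 53.9 and 45.5 with DMSO at 4 h, and 32.5 and 36.9 with dexamethasone and 26.4 and 28.5 with DMSO at 24 h. They lay below at both times in 0 genes (2.42% of all), and on opposite sides at the 2 times in 6 (5.9% of all). The 6 were AT1G17090, AT1G17665, AT4G30650, AT5G38980, AT5G50450 and AT5G52780.

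The change of the dexamethasone difference between 24 h and 4 h was tested as an interaction, and none of the 68 genes passed (0.0% of all probe sets passed). The smallest limma adjusted p was 0.832. The median difference of differences was -0.04, beside 0.02 over all probe sets, and 33 genes were above 0 (48.5%, against 53.0% of all). The sign of the median depended on single arrays: it was 0.10 without replicate 2 of DMSO at 24 h, 0.03 without replicate 1 of dexamethasone at 4 h and 0.01 without replicate 1 of DMSO at 4 h. It was -0.10 without replicate 1 of DMSO at 24 h and -0.11 without both arrays that stood apart. An unadjusted p below 0.05 was found for 3 genes with higher values at 24 h (3.07% of all) and 6 with lower values (2.41% of all). The count of lower values fell in the fits without replicate 1 of DMSO at 24 h or without replicate 2 of dexamethasone at 4 h. The share over all probe sets fell in those fits too, and each leaves a group with 1 array. The smallest p belonged to AT5G52780 at -0.52 (SE 0.16). Its signals were 523 and 471 with dexamethasone and 431 and 423 with DMSO at 4 h, and 263 and 241 with dexamethasone and 301 and 324 with DMSO at 24 h. The dexamethasone arrays were thus higher at 4 h and lower at 24 h, but the difference did not pass. AT4G30650 at 0.71, AT5G02160 at -0.51, AT5G50450 at -0.77 and AT2G25730 at -0.69 did not pass either. Without both arrays that stood apart AT4G30650 had 0.32 and AT5G02160 had -0.23.

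A return to the starting level after a full light cycle was examined in the DMSO samples at 24 h against those at 0 h, which the choice treated alike. Genes whose 0 h or 24 h arrays reached the 4 h level could not enter, which limits these differences too. None of the 68 genes passed in limma (smallest adjusted p 0.337), and 0.0% of all probe sets did. The log2 differences ran from -0.82 to 0.68 with a median of -0.09, beside 0.00 over all probe sets, and 23 genes were above 0 (33.8%, against 50.2% of all). On the linear scale the median ratio of the DMSO means, 24 h over 0 h, was 0.934, with a range of 0.492 to 1.62. An unadjusted p below 0.05 was found for 3 genes with higher values at 24 h (4.41%, against 2.07% of all) and for 8 with lower values (11.8%, against 2.48%). Both arrays at 24 h lay below both at 0 h in 21 genes (30.9%, against 16.4%) and above both in 9 (13.2%, against 16.1%). Without replicate 1 of DMSO at 24 h the median was 0.00 and 36 genes were above 0 (all probe sets 50.6%), against 23 with it. Fewer genes than 8 had lower values with an unadjusted p below 0.05 in that fit, while the share over all probe sets changed little. That fit leaves 1 DMSO array at 24 h. The median was -0.16 without replicate 2 of DMSO at 24 h, and also -0.16 without replicate 1 of DMSO at 0 h. This comparison and that of dexamethasone with DMSO at 24 h share the DMSO arrays at 24 h.

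AT4G16146 had the smallest p here. With 191 and 174 with DMSO at 24 h and 112 and 112 with DMSO at 0 h, its log2 difference was 0.68 (SE 0.12, limma adjusted p = 0.337). It did not pass, and its 24 h arrays with dexamethasone, given above, lay in the same range as those with DMSO. AT1G17090 had 22.2 and 18.0 at 24 h and 39.2 and 30.6 at 0 h, a log2 difference of -0.68. AT3G15720 at -0.78, AT1G52000 at -0.67 and AT2G25730 at 0.47 complete the 5 smallest p-values, and none passed. Single arrays moved these values: AT3G15720 had -0.38 without replicate 1 and -1.18 without replicate 2 of DMSO at 0 h. AT1G52000 had -1.05 without replicate 1 and -0.28 without replicate 2 of DMSO at 24 h. AT2G25730 had 0.28 without replicate 2 of DMSO at 0 h.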

How the data were processed

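The authors deposited 1 table of signal intensity per probe set, without detection calls. Per the submitters' processing notes, MAS5 and GCOS were used. The scaling target and software versions are not stated there. The authors' scaling was kept. Probe sets were named from the platform annotation. Of the 13513 single-gene probe sets, 13436 were matched to a RefSeq gene, whose name was used (TAIR10.1, names and gene order only). Of the other probe sets, 8730 had no gene and 503 had several, and they were not used as members. The members and gene lists (11 lists, 189 loci) were chosen with earlier results of these data known.

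Tests used limma 3.58.1 in R 4.3.3 on log2(signal + 4.32), where 4.32 is percentile 20 of all values, which understates changes of weak probe sets. A probe set was kept if it exceeded percentile 40 of the array on 2 or more arrays (14575 were, all 68 genes included), with 1 mean per group over all 10 arrays, 5 residual degrees of freedom and eBayes with a trend. P-values are two-sided and adjusted by Benjamini-Hochberg over all 14575. The fit was tested on simulated data. Tables and figures used Python 3.11.15, pandas 2.3.3 and matplotlib 3.10.9.

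Genes named in the text are AT1G07050 and AT2G23910, the 12 largest ratios, the 6 highest means at 4 h, the 3 genes on each side of each limit, the 5 smallest p in each comparison, those with a functional name and those on a list. AT2G43550, the genes between it and AT2G43530, relatives, and genes listed for the order of their arrays were named after their values were seen. Other settings were another pseudocount, no filter, quantile normalization, no trend, a replicate block, other limits and leaving out arrays. Leaving out both arrays that stood apart was chosen after seeing the data. Promoter sequences were not used here.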

Additional observations from a re-analysis of the deposited data

How the results depend on the processing

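With a ratio of at least 2 the set held 23 genes instead of 68. It held 67 to 85 over the sets found with any single array left out, 77 after quantile normalization, 46 with a mean above 100, and 79 without both arrays that stood apart, 58 of them shared with the 68. The count of genes passing between dexamethasone and DMSO at 4 h was 0 to 1 over the leave-one-out fits, the 1 being AT5G02160 without replicate 1 of dexamethasone (log2 0.87, limma adjusted p 0.0251). The cause was not tested. In the other 3 comparisons it was 0 in each leave-one-out fit, and in all 4 it was 0 with a pseudocount of 16, no filter, quantile normalization or no trend. With the replicate number as a block, 0 genes passed in each comparison, with smallest limma adjusted p of 0.45 at 4 h and 0.997 at 24 h. Deviations of same-numbered replicates correlated at 0.114, -0.0263 and -0.025, and the labels give the numbers no shared source, so they were not taken as pairs. The planned search of promoter motifs was not run. Fits that leave a group with 1 array assume that it varies like the others. With 2 arrays per group, small differences cannot be resolved.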

Other observations

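Of the 8730 probe sets with no gene in the annotation used, 81 (0.928%) met the same numbers at 4 h, and they are not among the 68 genes. A further 42 single-gene probe sets were separated with a sufficient ratio but had a mean of 40 or less at 4 h. CHL and GTR1 lie on the same chromosome with 8 genes between them.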
